A study of Mus musculus with 20 samples.

Results

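Heat shock proteins and reticulum chaperones were followed in mouse aorta through the genes whose symbols begin with Hsp or Dnaj, or with Bag or Pdia and a digit, together with Herpud1, Hyou1, Calr and Canx; the matrix proteoglycan gene Hspg2 was left out. RefSeq lists 89 protein-coding mouse genes under these names, and 34 of them were called changed in at least 1 of 3 comparisons, out of 3696 genes called in all. These are 38.2% of the 89; the 3696 are at most 25.2% of the genes the authors tested, over the 14661 of the comparison with the most. By location of the protein, 23 of the 34 belong to the cytosol and nucleus (of 48), 6 to the mitochondrion (of 8) and 5 to the endoplasmic reticulum (of 21, or 23.8%, near that share). The remaining 12 genes, J-proteins assigned here to none of these compartments and the ciliary gene Hspb11, were called nowhere. Placing any of them in a compartment would therefore lower the share called there.

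The libraries were made from total RNA of cleaned aorta of female mice, and each pooled the tissue of 2 animals. Wild-type (WT) mice and mice labelled knockdown or KO for Slc24a4, the gene of the potassium-dependent sodium/calcium exchanger NCKX4, were taken young, at 12 to 15 weeks, or aged, at 72 to 78 weeks. Each of the 4 groups held 5 libraries, 20 in all. The labels name neither the allele nor the cells in which it acts, and Slc24a4 was itself called in WT ageing only, where it was lower in aged aorta in the authors' deposited table (log2 fold change −2.0, SE 0.46, adjusted p = 1.4e-05), so KO stands for the label.

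The values are those of 3 tables of genes that the authors called at an adjusted p under 0.05, for ageing in WT (aged over young), for KO young over WT aged, and for ageing in KO (aged over young). Apart from those of the difference between genotypes, every adjusted p below comes from the authors' test, for which their processing notes name DESeq2. Each rests on the spread between 5 pools a group. Those of the difference come from a z test made here on the authors' values and described with them. No level of a single library was analysed here, library depth is unknown, and the level of a group is the mean normalized count implied by a table's mean and fold change. A gene absent from a table was tested without being called or was not tested. The tables share groups (WT aged in the first pair, KO young in the last pair), so a low or high shared group moves 2 tables at once. In bulk tissue, fewer cells of a type and less RNA per cell cannot be told apart.

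Molecular chaperones bind unfolded proteins and help them to fold. In the cytosol HSP70 proteins take up clients that J-proteins (Dnaj genes) deliver, release them with the help of nucleotide exchange factors of the Bag, Hspbp1 and HSP110 kinds, and pass some on to HSP90; small heat shock proteins (Hspb genes) hold clients without using ATP and are abundant in muscle. Mitochondria have their own HSP70, J-proteins and the HSP60/HSP10 folding chamber. The reticulum has the HSP70 protein BiP, lectin chaperones and protein disulfide isomerases. Heat shock factor 1 induces the cytosolic set through heat shock elements, and the unfolded protein response induces the reticulum set through reticulum stress elements.

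Promoter windows of RefSeq, from 250 bases before to 50 after a gene's start on build GRCm38.p6, were available for 29 of the 34 called members and 73 of all 89. The submitters' notes name GRCm39, and no position was carried between the builds. Both strands were searched for heat shock elements, which are alternating units GAA and TTC with any 2 bases between neighbours: the 3-unit form beginning and ending with GAA, and the 2-unit forms GAANNTTC and TTCNNGAA, which overlap it. They were also searched for the reticulum stress element (CCAAT, any 9 bases, then CCACG) and the reticulum stress element II (ATTGG, any 1 base, then CCACG). The windows shown are those of Hspe1, whose window overlaps that of Hspd1, and of Hsph1 and Hspb1, all higher in aged KO aorta, of the reticulum genes Herpud1 and Hspa5, and of Hspb7, which was called in all 3 comparisons. Capitals mark the matches.
Hspe1, chr1:55087898-55088197, plus strand: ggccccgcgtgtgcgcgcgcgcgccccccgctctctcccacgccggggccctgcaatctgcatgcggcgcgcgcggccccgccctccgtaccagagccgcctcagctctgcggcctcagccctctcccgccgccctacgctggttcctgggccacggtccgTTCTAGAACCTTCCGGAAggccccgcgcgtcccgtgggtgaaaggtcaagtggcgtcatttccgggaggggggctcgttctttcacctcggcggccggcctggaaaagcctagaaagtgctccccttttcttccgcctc
Hsph1, chr5:149636266-149636565, minus strand: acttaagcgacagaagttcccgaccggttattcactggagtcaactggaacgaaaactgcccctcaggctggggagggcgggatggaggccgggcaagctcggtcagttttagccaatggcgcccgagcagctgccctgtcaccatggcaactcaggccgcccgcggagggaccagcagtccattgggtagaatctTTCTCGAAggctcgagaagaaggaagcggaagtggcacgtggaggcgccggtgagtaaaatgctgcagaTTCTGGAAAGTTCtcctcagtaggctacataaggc
Hspb1, chr5:135887669-135887968, plus strand: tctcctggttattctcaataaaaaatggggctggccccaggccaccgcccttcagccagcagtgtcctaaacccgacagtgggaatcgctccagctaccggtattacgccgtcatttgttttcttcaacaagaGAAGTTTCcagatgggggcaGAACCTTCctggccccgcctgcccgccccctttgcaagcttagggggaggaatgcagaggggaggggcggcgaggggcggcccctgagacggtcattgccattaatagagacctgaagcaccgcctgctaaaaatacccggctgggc
Herpud1, chr8:94386179-94386478, plus strand: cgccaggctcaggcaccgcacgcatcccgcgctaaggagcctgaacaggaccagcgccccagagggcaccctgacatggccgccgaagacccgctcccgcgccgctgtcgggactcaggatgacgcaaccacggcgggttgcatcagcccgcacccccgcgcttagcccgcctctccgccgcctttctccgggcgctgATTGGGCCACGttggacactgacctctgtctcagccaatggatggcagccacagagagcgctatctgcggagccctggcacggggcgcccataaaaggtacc
Hspa5, chr2:34771840-34772139, plus strand: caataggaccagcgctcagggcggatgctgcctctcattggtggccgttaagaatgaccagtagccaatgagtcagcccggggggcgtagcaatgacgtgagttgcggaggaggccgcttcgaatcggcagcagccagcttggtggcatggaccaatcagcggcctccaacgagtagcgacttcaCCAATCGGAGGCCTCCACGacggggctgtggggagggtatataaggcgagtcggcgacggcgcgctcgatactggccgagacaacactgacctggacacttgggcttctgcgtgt
Hspb7, chr4:141420529-141420828, plus strand: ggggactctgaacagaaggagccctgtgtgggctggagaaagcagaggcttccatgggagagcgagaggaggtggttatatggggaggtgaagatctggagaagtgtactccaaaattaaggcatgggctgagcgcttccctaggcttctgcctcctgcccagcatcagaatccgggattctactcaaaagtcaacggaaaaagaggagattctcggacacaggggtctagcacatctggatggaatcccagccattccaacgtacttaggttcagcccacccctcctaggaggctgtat

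In the Hspe1 window the run in capitals spans 18 bases from −89 to −72 relative to the start and holds 2 overlapping 3-unit matches. Hspd1 is transcribed the other way from the same stretch: 1 of its 2 windows shares 285 bases with that of Hspe1 and holds the same run at −144 to −127. In the Hsph1 window shown, 1 of 2, the 3-unit match lies after the start, at 16 to 28, with a 2-unit match before it, and Hspb1 has 2-unit matches alone. The capitals in Herpud1 (−52 to −42) and Hspa5 (−65 to −47) are the reticulum elements. The 3-unit match was present in 0.603% of all 32851 windows (198) and in the windows of 3 called members, Hspd1, Hspe1 and Hsph1, and of 1 member that was not called, Dnajb6. Matches to GAANNTTC were found in 7.86% of all windows, in 11 of the 29 called members with a window and in 15 of all 73 members with one. The members with a match that were not called are Dnajb6, Dnajc27, Dnajc5g and Hspb3. A gene can have more than 1 window, so shares of windows and of genes are not alike. The long reticulum stress element was found in 0.119% of all windows and in 6 member genes, of which Hspa5 was the one called; element II was found in 0.0365% of windows, among them those of Herpud1 and of Dnajb11, which was not called. Of the 8 members with either reticulum element, 2 were called in at least 1 comparison. That is near the share of all tested genes so called, at most 25.2%. Calr, Canx, Dnajc3, Hsp90b1 and Pdia6, which have the long element, were not called. The Hspb7 window has none of these letters.

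**Figure D1:**
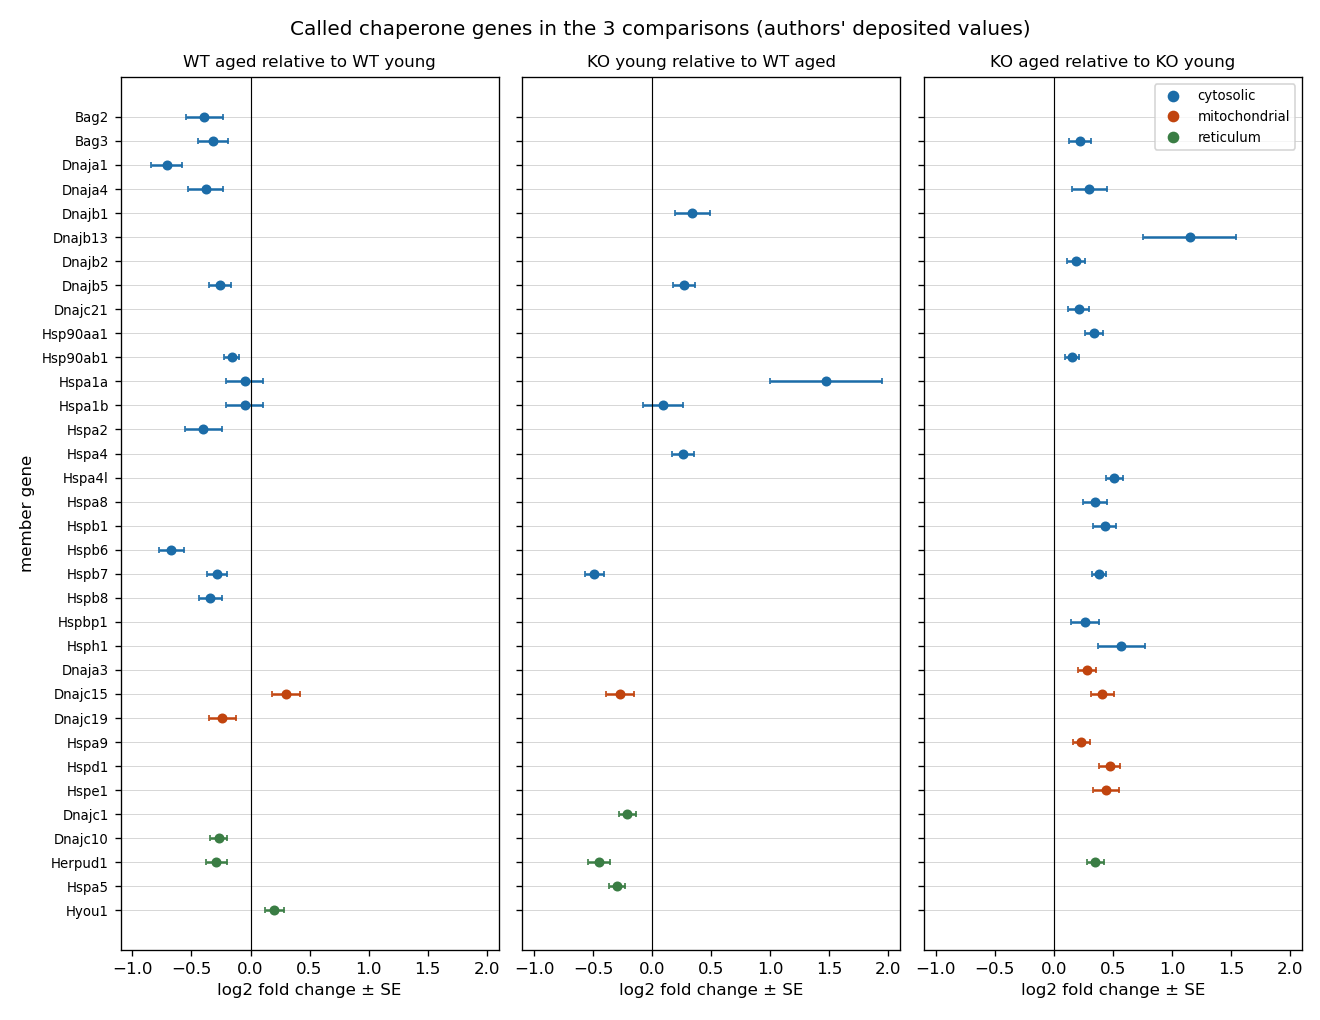
Log2 fold change with its SE (x axis) of each called member (y axis) in the authors' deposited tables (sign turned for KO young against WT aged), one panel per comparison and coloured by compartment; an empty line means that the gene was not called there. In WT ageing 15 of 17 members lie left of 0, and in KO ageing all 19 lie right of 0.

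In WT aorta most called chaperone genes fell with age. Of the 89 genes 17 were called, 15 lower and 2 higher in aged than in young WT aorta. Among all 14374 genes tested there, 12.0% were called, 6.76% as lower and 5.26% as higher. The 15 lower members are 16.9% of the 89 and the 2 higher ones 2.25%; some of the 89 will not have been tested, so these shares are low rather than high estimates. The median log2 fold change of the 17 was −0.28, beside −0.21 for all 1728 called genes, and the absolute medians were 0.29 and 0.41. Every one of the 12 called cytosolic genes was lower, while mitochondrial genes gave 1 lower and 1 higher and reticulum genes 2 lower and 1 higher.

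Hspb6 and Dnaja1 had the smallest adjusted p of the members in WT ageing. Dnaja1, a J-protein that serves HSP70, had implied levels of 3698 normalized counts in WT young and 2260 in WT aged, with a log2 fold change of −0.71 (SE 0.13, adjusted p = 5.6e-08) in the authors' deposited table. The level of Hspb6, the small heat shock protein HSP20 of smooth and striated muscle, was 1651 in WT young and 1038 in WT aged (−0.67, SE 0.10, adjusted p = 8.1e-10 in the authors' deposited table). The implied level of Dnaja1 fell by 38.9% and that of Hspb6 fell by 37.2%. Hspb8, which works with the exchange factor Bag3 in clearing damaged muscle proteins, stood at 2738 in WT young and 2163 in WT aged (−0.34, SE 0.10, adjusted p = 0.0017 in the authors' deposited table). Bag3 itself was at −0.32 (SE 0.13) and Bag2 at −0.39 (SE 0.15) in the authors' deposited table. Between young and aged WT aorta Hspb8 fell by 21.0%, Bag3 fell by 19.9% and Bag2 fell by 23.7%.

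The other lower cytosolic genes changed less or with wider error. In the authors' deposited table the log2 fold change was −0.40 for Hspa2, an HSP70 best known from testis, −0.38 for the J-protein gene Dnaja4, −0.28 for Hspb7, −0.26 for the J-protein gene Dnajb5 and −0.16 for Hsp90ab1, the constitutive HSP90. The implied level of Hsp90ab1 was 22265 normalized counts in WT young and 19928 in WT aged. Both stress-inducible HSP70 genes, Hspa1a and Hspa1b, were called lower, but at −0.05 each (SE 0.16) in the authors' deposited table. For these genes the printed fold change is much smaller than the p-value implies: its ratio to the SE was 0.108 (Hspa1a) and 0.0987 (Hspa1b) of the z of the p-value, against a median of 0.858 over that table. The size of their decrease in WT ageing is therefore not given by the deposited value.

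In WT ageing 3 of the 21 reticulum genes (14.3%) and 2 of the 8 mitochondrial genes (25%) were called, beside 25% of the cytosolic genes and 12.0% of all tested genes. Herpud1, a stress-induced membrane protein of reticulum-associated degradation, went from 3937 in WT young to 3220 in WT aged (−0.29, SE 0.09, adjusted p = 0.0028 in the authors' deposited table). Dnajc10, a reticulum J-protein that reduces disulfides, was at −0.27 (SE 0.07), and Hyou1, the exchange factor of BiP, was higher, at 0.20 (SE 0.08), in the authors' deposited table. Of the mitochondrial J-proteins, in the authors' deposited table, Dnajc19 of the import motor was lower (−0.24, SE 0.12) and Dnajc15 of the inner membrane was higher (0.30, SE 0.12). The chaperonin genes Hspd1 and Hspe1 and the mitochondrial HSP70 gene Hspa9 were not called.

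Markers of other cells moved in the same comparison of WT ages. Of 8 striated muscle markers 2 were called, both lower in aged WT aorta: Actc1 went from an implied 153 to 38.5 normalized counts, and Myh6 was at −0.09 (SE 0.19, adjusted p = 0.025) in the authors' deposited table. As for Hspa1a and Hspa1b, the Myh6 value is smaller than its p implies and does not give the size of its decrease. Of 6 fibroblast markers Col1a1, Dpt and Pi16 were lower, by −0.95, −0.33 and −0.28 in the authors' deposited table. Des was higher among 7 smooth muscle markers (0.39 in the authors' deposited table), and Cfd and Cidec were higher among 8 adipocyte markers; no endothelial or leukocyte marker was called. The part of these shifts in the chaperone values was not tested.

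**Figure D2:**
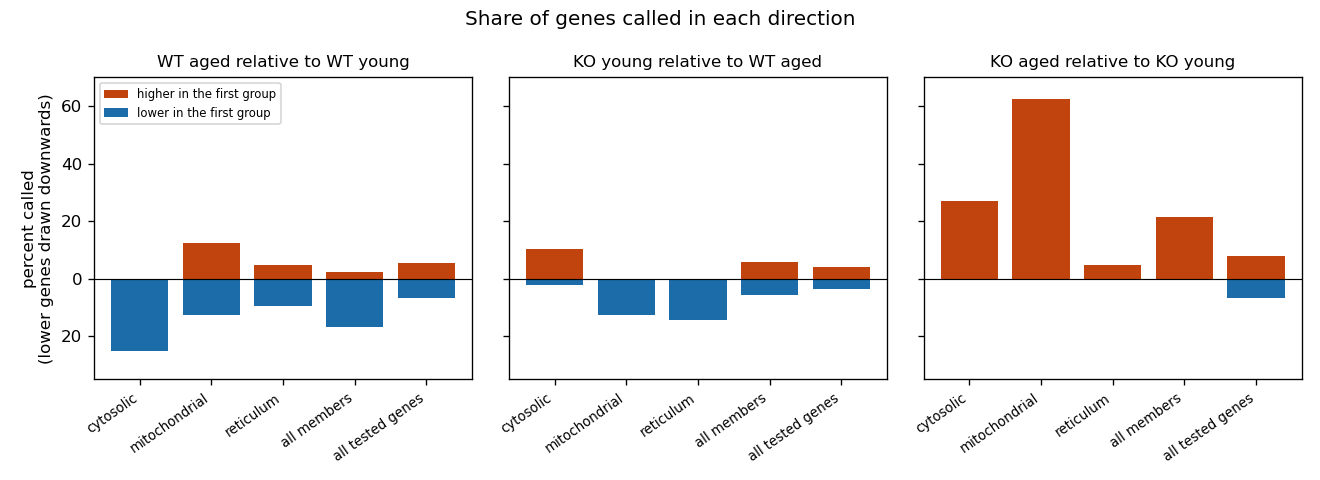
Percent of genes called (y axis), with genes higher in the first-named group drawn upwards and lower ones downwards, for cytosolic, mitochondrial, reticulum and all members (percent of RefSeq genes of the rule) and for all tested genes. In WT ageing the cytosolic bar points down (25%), and in KO ageing the cytosolic (27.1%) and mitochondrial (62.5%) bars point up.

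In KO aorta every called chaperone gene rose with age. The 19 called members, 21.3% of the 89, were all higher in aged than in young KO aorta, and none was lower. Over all 14477 genes tested in that comparison 14.4% were called, 7.71% as higher and 6.68% as lower. The median log2 fold change was 0.35 over the 19 members and 0.18 over all 2083 called genes, which went in both directions. The absolute medians were nearly equal, at 0.35 and 0.33. By compartment, 13 cytosolic genes, 5 of the 8 mitochondrial genes and 1 reticulum gene were called.

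Of the 13 cytosolic genes called in KO ageing, 5 were HSP110, HSP90 or HSP70 genes, and Hspa8 was the 1 called among the cytosolic HSP70 genes. Hspa4l, an HSP110-type exchange factor, had the smallest adjusted p of all members: its implied level was 1671 in KO young and 2379 in KO aged, a log2 fold change of 0.51 (SE 0.07, adjusted p = 2.6e-11) in the authors' deposited table. Hsph1, the inducible HSP110, rose from 5886 to 8738 (0.57, SE 0.20, adjusted p = 0.0039 in the authors' deposited table), a larger change with a wider error. The inducible Hsp90aa1 rose by 0.34 (SE 0.08) and the constitutive Hsp90ab1 by 0.15 (SE 0.06) in the authors' deposited table. Hspa8, the constitutive HSP70, went from 18565 in KO young to 23662 in KO aged (0.35, SE 0.10, adjusted p = 0.0015 in the authors' deposited table). Hspa1a and Hspa1b were not called in this comparison.

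Of the Hspb genes with a number, mostly small heat shock proteins, 2 of 8 were called in KO ageing (Hspb1 and Hspb7), of the Dnajb genes 2 of 13, of the Dnajc genes 2 of 28, of the Dnaja genes 2 of 4 and of the Bag genes 1 of 6. Over all tested genes 7.71% were called higher and 14.4% either way. Families this small were not tested against those shares. Hspb1, the small heat shock protein HSP27, went from 3487 in KO young to 4698 in KO aged (0.43, SE 0.10, adjusted p = 3.2e-05 in the authors' deposited table). Hspb7, the cardiovascular small heat shock protein, went from 5516 to 7178 (0.38, SE 0.06, adjusted p = 9.9e-10 in the authors' deposited table). Dnaja4 was at 0.30, the exchange factor genes Hspbp1 at 0.26 and Bag3 at 0.22, the J-protein genes Dnajc21, which acts in ribosome assembly, at 0.21 and Dnajb2, which binds ubiquitin, at 0.19 in the authors' deposited table. The adjusted p of these 5 lay between 0.029 and 0.040, near the threshold. Dnajb13, a J-protein of cilia and sperm tails, had the largest fold change (1.15, SE 0.39, adjusted p = 0.0026 in the authors' deposited table) but rested on few reads, with 27.2 normalized counts in KO young and 60.3 in KO aged.

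Of the 8 mitochondrial members 5 rose in KO ageing, and the other 3, Dnajc11, Dnajc19 and Dnajc30, were not called. Hspd1 (HSP60) had implied levels of 2132 in KO young and 2954 in KO aged (0.47, SE 0.09, adjusted p = 6.7e-07 in the authors' deposited table). Its co-chaperonin Hspe1 (HSP10), whose window is printed above, was at 816.5 and 1108 (0.44, SE 0.11, adjusted p = 0.00029 in the authors' deposited table). The increases of this pair, 38.5% and 35.7%, differed by less than either SE. Dnajc15 rose by 0.41 (SE 0.10), the J-protein gene Dnaja3 by 0.28 (SE 0.08) and the mitochondrial HSP70 gene Hspa9 by 0.23 (SE 0.07) in the authors' deposited table.

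In KO ageing Herpud1 was the 1 called gene of the 21 reticulum genes, at 2224 in KO young and 2834 in KO aged (0.35, SE 0.07, adjusted p = 1.6e-05 in the authors' deposited table). That is 4.76% of the RefSeq genes of the reticulum, some of which may not have been tested, near the 7.71% of all tested genes called higher. The BiP gene Hspa5, the reticulum HSP90 gene Hsp90b1, the lectin chaperone genes Calr and Canx and the 5 protein disulfide isomerase genes Pdia2 to Pdia6 were not called; apart from Hspa5 in the comparison below, none of these was called anywhere.

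Genes that work with these chaperones were read from 6 lists. These lists were chosen with earlier results of these data known, so their shares, here and in the next paragraph, add no independent support. Among 34 other cytosolic co-chaperones and chaperonin subunits 10 were called in KO ageing and all were higher, 29.4% of the list beside 7.71% of all tested genes: in the authors' deposited table Fkbp5, an HSP90 co-chaperone of steroid receptors, was at 2.25 (SE 0.08), Chordc1 at 0.58, Ahsa2, an activator of HSP90, at 0.59 and Cdc37l1 at 0.28. The same list had 2 called genes in WT ageing, Fkbp5 higher (1.06, SE 0.39) and the HSP90 activator Ahsa1 lower (−0.31, SE 0.09) in the authors' deposited table. Each is 2.94% of the list, beside 5.26% of all tested genes called higher there and 6.76% lower. Of 20 mitochondrial folding and protease genes 3 were higher in KO ageing (15.0%, beside 7.71% of all tested genes). In the authors' deposited table Grpel1, the exchange factor of Hspa9, was at 0.24, Clpb at 0.22 and the mitochondrial HSP90 gene Trap1 at 0.17. In WT ageing Clpb alone was called, as higher (0.31 in the authors' deposited table). That is 5.00% of the list, beside 5.26% of all tested genes. None of 5 genes of heat shock factors and their binding proteins was called in any comparison, at the level of their RNA.

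Reticulum partners were called in both directions. Of 32 folding and disulfide genes 5 were called in WT ageing and all were lower (15.6%, beside 6.76% of all tested genes), led in the authors' deposited table by the collagen-folding gene Fkbp10 at −0.46, Ppic at −0.42, Fkbp9 at −0.25 and the collagen chaperone Serpinh1 at −0.23. In KO ageing that list gave Uggt2 at −0.22, Fkbp9 at −0.15 and Mogs at 0.22 in the authors' deposited table. These are 6.25% lower and 3.12% higher, beside 6.68% and 7.71% of all tested genes. Unfolded protein response genes, beside 7.71% of all tested genes higher and 6.68% lower in KO ageing, gave 3 higher (Ddit3 0.44, Xbp1 0.25, Atf4 0.17) and 2 lower (Mbtps2 −0.24, Creb3l1 −0.22) of 19 (15.8% and 10.5%) in KO ageing in the authors' deposited table, and 2 lower in WT ageing, Creb3l1 at −0.63 and Creb3l2 at −0.15 in the authors' deposited table. Degradation genes gave 4 higher of 22 in KO ageing (18.2%, beside 7.71%), among them the ubiquitin ligase gene Syvn1 at 0.28 and Edem3 at 0.21 in the authors' deposited table. In WT ageing 1 was lower (4.55%, beside 6.76%), Erlec1 at −0.23 in the authors' deposited table.

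Cell markers called in KO ageing were few. In the authors' deposited table Ucp1 of brown fat was at 1.62 (SE 0.45), and it was the 1 called of 8 adipocyte markers, with Adipoq, Plin1 and Cidea not called. Nos3 was higher among 7 endothelial markers (0.50 in the authors' deposited table), Lmod1 was lower among 7 smooth muscle markers (−0.32) and Col1a1 lower among 6 fibroblast markers (−0.35) in the authors' deposited table. No striated muscle or leukocyte marker was called. Their part in the chaperone increase was not tested.

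KO young aorta was set against WT aged aorta in the remaining comparison, where age and genotype differ together and cannot be told apart. All its fold changes are the authors' deposited values with the sign turned, so that positive means higher in KO young. Of the 89 genes 10 were called, 11.2%, with 5 higher and 5 lower in KO young. Over all 14661 genes tested 7.78% were called, 4.08% higher and 3.70% lower, so the 5.62% of members in each direction were close to the background. The called genes were 5 higher and 1 lower of the 48 cytosolic genes, 3 lower of the 21 reticulum genes and 1 lower of the 8 mitochondrial genes; no test compared the compartments. Leaving out Hspa1a and Hspa1b, which share sequence, 3 higher genes remain.

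Hspa1a showed the largest difference. Its implied level was 1057 in WT aged and 2927 in KO young, a log2 fold change of 1.47 (SE 0.47, adjusted p = 0.0021) (value of the authors' deposited table, sign turned). Hspa1b was called as higher too, at 0.09 (SE 0.17) in the authors' deposited table, a value again far below what its p implies, at 0.175 of its z. Reads of the pair can be confused, since 58.8% of the 50-base words of the Hspa1a transcript occur in Hspa1b. Dnajb1, the main J-protein partner of inducible HSP70, was at 0.34 (SE 0.15), Dnajb5 at 0.27 (SE 0.09) and the exchange factor gene Hspa4 at 0.26 (SE 0.09) in the authors' deposited table.

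Lower in KO young were Hspb7, Dnajc15 and 3 of the 21 reticulum genes, and the other 18 reticulum genes were not called. Hspb7 had 7863 normalized counts in WT aged and 5599 in KO young (−0.49, SE 0.08, adjusted p = 2.5e-09 in the authors' deposited table). Herpud1 went from 3185 in WT aged to 2331 in KO young (−0.45, SE 0.10, adjusted p = 1.0e-05 in the authors' deposited table). Hspa5, which encodes BiP, went from 11816 to 9598 (−0.30, SE 0.07, adjusted p = 6.1e-05 in the authors' deposited table). The reticulum J-protein gene Dnajc1 was at −0.21 (SE 0.07) and Dnajc15 at −0.27 (SE 0.12) in the authors' deposited table. Few partner genes were called outside the unfolded protein response list, beside 4.08% of all tested genes higher and 3.70% lower. Of 34 cytosolic partners Fkbp5 was lower in KO young at −2.16 (2.94%). Of 32 reticulum folding genes Manf was lower at −0.45 (3.12%), and of 22 degradation genes Selenos at −0.37 (4.55%). No mitochondrial partner of 20 was called. Among 19 unfolded protein response genes Asns at −0.70, Ddit3 at −0.55 and Xbp1 at −0.18 were lower (15.8%). From the same list Ppp1r15a at 0.45 and Creb3l1 at 0.36 were higher (10.5%). These are values of the authors' deposited table, sign turned. Endothelial markers went both ways: of 7, Nos3 and Vwf were lower and Kdr was higher. Of 7 smooth muscle markers Smtn was lower, of 8 adipocyte markers Cidec was lower and of 6 fibroblast markers Dpt was higher. No striated muscle or leukocyte marker was called. The part of these markers in the chaperone values was not tested.

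**Figure D3:**
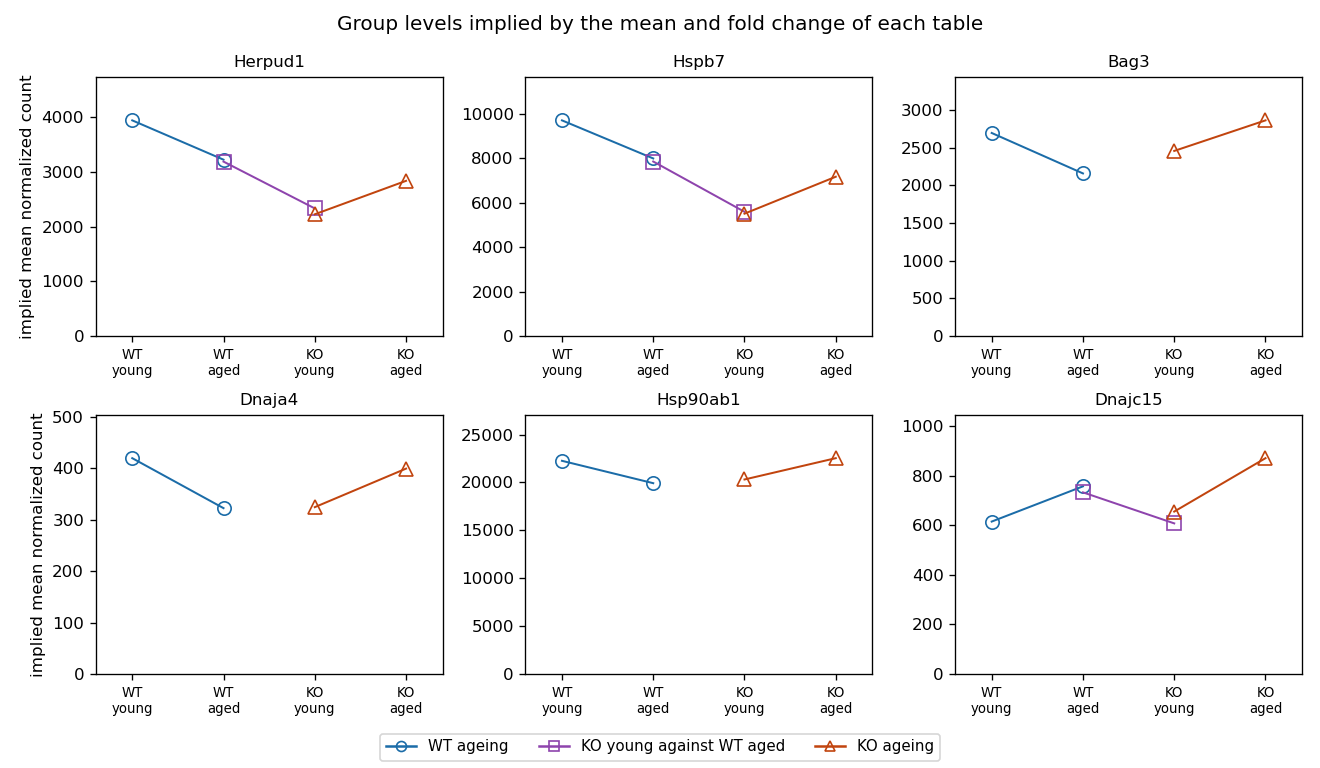
Implied mean normalized count (y axis, from 0) of the 6 members called in both ageing comparisons, in the 4 groups (x axis); each line joins the 2 groups of one table and no error is drawn. Herpud1 and Hspb7 fall from WT young to WT aged, are lower in KO young and rise again in KO aged, and the 2 tables that hold a group give nearly the same level.

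Herpud1, Hspb7 and Dnajc15 were called in all 3 comparisons and can be followed through the 4 groups. Hspb7 stood at 9715 in WT young, 8001 or 7863 in WT aged (from either table that holds the group), 5599 or 5516 in KO young and 7178 in KO aged. Herpud1 followed the same order, with 3937, 3220 or 3185, 2331 or 2224, and 2834. For both genes WT young was highest and KO young lowest. Dnajc15 moved with age in the same direction in both genotypes, from 614.8 in WT young to 757 or 733 in WT aged and from 607.5 or 655 in KO young to 870.5 in KO aged. KO young and WT young were not compared with each other in the tables used. The ratio of a level between the 2 tables lay between 0.927 and 1.05 for these genes, beside 2.42 for Hspa1a and 1.53 for Hspa1b in WT aged, where fold changes smaller than the p-values imply enter.

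Ageing went in opposite directions in the genotypes for 5 of the 6 members called in both ageing comparisons. The ageing comparisons share no library, so each gene's difference in log2 fold change was tested against 0 with a z test that adds the variances of both estimates from the authors' deposited table, and the p-values were adjusted (Benjamini-Hochberg) across the 438 genes that both tables hold. KO ageing exceeded WT ageing by 0.66 for Hspb7 (SE 0.10, 95% interval 0.46 to 0.86, adjusted p = 9.2e-09) and by 0.64 for Herpud1 (SE 0.12, interval 0.41 to 0.87, adjusted p = 1.0e-06). The excess was 0.68 for Dnaja4 (SE 0.21, adjusted p = 0.0049), 0.54 for Bag3 (SE 0.16, adjusted p = 0.0030) and 0.31 for Hsp90ab1 (SE 0.08, adjusted p = 0.0015). Dnajc15 gave 0.11 (SE 0.15, interval −0.19 to 0.41, adjusted p = 0.72), so a difference of up to 0.41 is within its error. The fold changes over their SEs were smaller than the z of the p-values (median ratio 0.858 in WT and 0.865 in KO ageing), as shrunken estimates are. The intervals are therefore approximate.

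Over all 438 genes 29.9% gave a called difference, 17.8% with KO ageing above WT ageing, and 8.68% were lower in WT and higher in KO ageing. A gene called in opposite directions differs almost by that fact: the difference was called for 76 of the 77 such genes, and for 55 of the other 361. The 13 members called in KO ageing and not in WT ageing, among them Hspd1, Hspe1, Hspa8 and Hspa4l, and the 11 called in WT ageing and not in KO ageing, among them Dnaja1 and Hspb6, have an estimate in 1 genotype, and whether their ageing effect differed between genotypes was not tested.

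**Figure D4:**
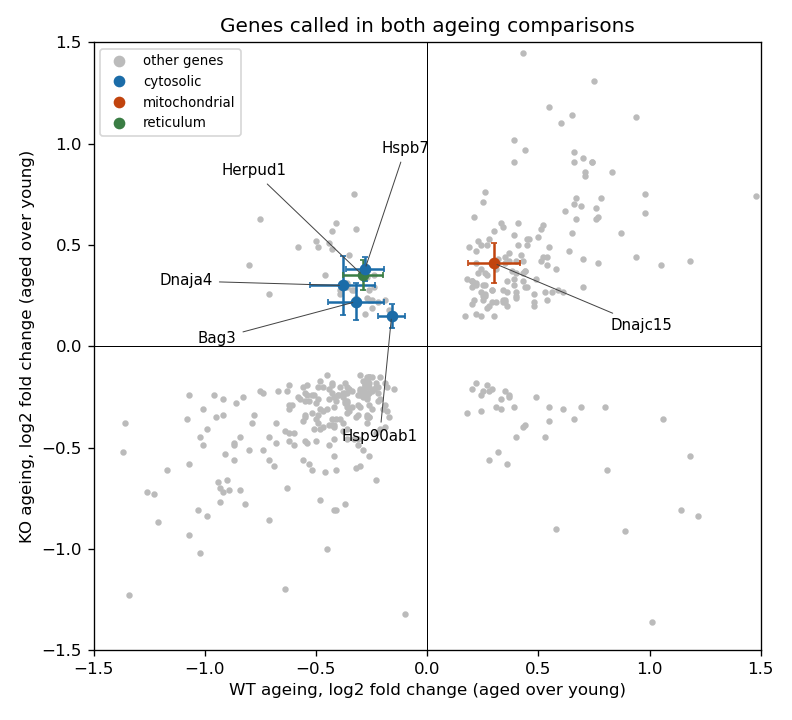
Log2 fold change with age in WT (x axis) and in KO (y axis) for genes called in both ageing comparisons, with members in colour and their SEs as bars; 15 genes beyond the axes are not drawn. Hspb7, Herpud1, Dnaja4, Bag3 and Hsp90ab1 lie at the upper left, lower in aged WT and higher in aged KO, and Dnajc15 lies in the upper right.

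Sequence shared with other genes limits some of these values, and how reads with several matches were counted is not stated in the labels. Of the 34 called members 20 share no 50-base word with the transcripts of another GENCODE gene, and 7 share more than 30%. The shared part was 73.2% for Hspa8, 58.5% for Hsp90aa1, 51.7% for Hspb1, 44.8% for Hspd1 and 36.1% for Hspe1, beside the Hspa1a and Hspa1b pair. Hspb1 shared most with Hsp25-ps1 and Hspd1 with Hspd1-ps3, whose symbols mark pseudogenes. The kind of the other sharing genes was not read. Herpud1, Hsph1, Bag3 and Dnaja4 share none, Hspb7 0.407% and Hspa4l 0.447%.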

How the data were processed

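Aortic RNA of 4 groups of 5 libraries was compared. The submitters' processing notes list DESeq2 1.42.1, MultiQC 1.25.1, Subread 2.0.8 with featureCounts, and STAR 2.7.11b, with build GRCm39, but no role or setting for any of them. Per the file headers, the authors deposited raw and adjusted p-values, log2 fold changes with SEs, and the mean normalized count per called gene. That mean is, per the file headers, a signal taken over both groups compared. Whether tables were normalized together is not stated; depth per library is unknown.

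How many genes the authors tested was solved from their adjusted and raw p-values, and the rank of each table's last gene equals its number of genes, so none ranked above the last is missing. Fold changes divided by their SE were smaller than the z of the p-value (median ratio 0.858, 0.841 and 0.865), as shrunken estimates are. Directions were set so that both tables holding a group give it equal implied means (median absolute deviation 0.0286 and 0.0353 on the log2 scale, against at least 0.185 and 0.115 otherwise); the sign of KO young against WT aged was turned. Implied means take equal group sizes. The fold changes printed are rounded as deposited.

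Members, compartments, 6 partner lists and 6 marker lists were chosen with earlier results of these data known. Every called member is named, as are up to 4 partner genes per list and comparison with the smallest adjusted p, and a few others chosen after their values were seen. Alternatives were an adjusted p under 0.01, a mean of at least 50, a log2 fold change of 0.3 or more in size, Hsp symbols only, and SEs implied by the p-value. Scripts were tested on simulated data. Software was pandas 2.3.3 and NumPy 2.4.6 under Python 3.11.15, SciPy 1.17.1 for tests and matplotlib 3.10.9 for plots. Replicates are pools of 2 mice, so p-values measure the spread between pools. Motifs and promoter windows are on GRCm38.p6.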

Additional observations from a re-analysis of the deposited data

Results flagged for a closer look

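The ageing effect differed between genotypes, by the test of the difference itself, for 5 members. On the log2 scale, KO ageing minus WT ageing was 0.66 for Hspb7, 0.64 for Herpud1, 0.68 for Dnaja4, 0.54 for Bag3 and 0.31 for Hsp90ab1. These genes were called in both ageing comparisons in opposite directions, which nearly fixes the call, and fold changes from 2 separate tables enter the difference. No value per library was used, so no sample was examined for standing apart.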

How the results depend on the processing

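A mean normalized count of at least 50 left 17, 10 and 18 called members in WT ageing, KO young against WT aged and KO ageing, and leaving out Hspa1a and Hspa1b, an alternative chosen after seeing the data, left 15, 8 and 19. With an adjusted p under 0.01, the counts in that order were 8 (0 higher), 6 (2 higher, 4 lower) and 13 (all higher). A log2 fold change of 0.3 or more in size left 8 (1 higher, 7 lower), 5 (2 higher, 3 lower) and 12 (all higher). Symbols starting with Hsp alone gave 7 (all lower), 5 (3 higher, 2 lower) and 11 (all higher), by construction fewer genes. The genotype difference was called for 5 members under each alternative run: SEs implied by the p-value, a mean of at least 50, and an adjusted p under 0.01. Since these 5 were called in opposite directions, which nearly fixes the call, these alternatives could hardly change it and add no support. No paired analysis was possible because the tables used hold comparisons and no value per library, and leaving out replicates was not run for the same reason.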

Other observations

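Dnajb13 lies next to the uncoupling protein genes Ucp2 and Ucp3 in RefSeq gene order, and with age each of the 3 rose in KO aorta: Ucp3 by 1.78 (SE 0.18), Ucp2 by 0.74 (SE 0.14) and Dnajb13 by 1.15 (SE 0.39) on the log2 scale in the authors' deposited table. Coa4 and Mrpl48, on its other side, were not called. Dnajb13 rested on few reads, with 27.2 normalized counts in KO young and 60.3 in KO aged. This case was picked from the neighbours of all called members, and 14.4% of all tested genes were called in KO ageing. Called neighbours of other rising members went both ways, with Intu (by Hspa4l) and Egr1 (by Hspa9) lower and Mdh2 and Ywhag (by Hspb1) higher. Shared regulation of neighbours was not tested. With the WT aged level of Hspa1a taken from the comparison with KO young (1057), its mean in WT ageing would leave 4155 in WT young, a log2 change with age of −1.97 in place of the −0.05 of the authors' deposited table. This joins 2 tables and has no error.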
